A study of Mus musculus with 6 samples.

Results

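The 10 genes described here encode the proteins that detect RNA and DNA in the cytosol and pass that signal on. They were chosen by name, with earlier results of these data known. They include the RNA helicases Rigi, Ifih1 and Dhx58, their adaptor Mavs and the ubiquitin ligase Trim25. The others are the nucleic acid sensors Zbp1 and Cgas, the adaptor Sting1, and the kinases Tbk1 and Ikbke. All 10 were found among the 26532 genes of the table by their Entrez numbers, and all 10 passed the filter on low counts, which left 13764 genes. The cells were MEFs, fibroblasts cultured from mouse embryos and labelled here as mesenchymal stem cells, and received a recombinant adenovirus carrying green fluorescent protein (GFP, labelled wild type) or ORAI2, a pore subunit of store-operated calcium channels (labelled as overexpression). Each group had 3 libraries, and both groups carry the treatment label osteogenic differentiation. Both groups were given an adenovirus, so no library shows these cells without one. The labels used here do not give the virus dose, the time, whether BMP9 was added, or if each library had a culture of its own. The p-values therefore measure the spread between these libraries, which may be technical.

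RIG-I (the product of Rigi) and MDA5 (Ifih1) bind viral RNA in the cytosol, RIG-I at short ends that carry a triphosphate and MDA5 along long duplexes. Both then engage MAVS on mitochondria. Cytosolic DNA is bound by cGAS, which makes a cyclic dinucleotide that activates STING on the endoplasmic reticulum. Both routes reach the kinases TBK1 and IKK-epsilon, which phosphorylate the transcription factors IRF3 and IRF7 and so switch on type I interferon. Interferon in turn raises the transcription of several of the sensors, so the family is known both as the source and as a target of the interferon response, in fibroblasts as in many other cells.

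The interferon-stimulated response element (ISRE) is the DNA motif through which interferon acts on such genes. RefSeq promoter windows of build GRCm38.p6, running from 250 bases before to 50 bases after the start of transcription, were at hand for 7 of the 10 genes (Rigi, Ifih1, Mavs, Cgas, Trim25, Tbk1 and Ikbke). The core GAAANNGAAA, searched on both strands, was found in 2 of these 7 windows, those of Rigi and Ifih1, against 3.44% of all 32851 windows in the table. Both matches are shown, as the only ones in the 7 windows. Both genes were lower in the ORAI2 libraries, and any link of the motif to that was not tested. The Rigi and Ifih1 matches are set beside 2 from Ifit1 and 1 from the RNA-activated kinase gene Eif2ak2, shown as genes that hold the core. Of 22 genes named from the pathway lists, 17 had a window and only 5 held a match. The core is in capitals, and each sequence runs 5′ to 3′ on the strand of its gene.
Rigi: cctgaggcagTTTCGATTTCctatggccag
Ifih1: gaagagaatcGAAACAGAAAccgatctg
Eif2ak2: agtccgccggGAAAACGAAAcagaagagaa
Ifit1, upstream match: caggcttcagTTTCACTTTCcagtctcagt
Ifit1, match nearer the start: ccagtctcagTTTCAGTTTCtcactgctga

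The Rigi sequence lies at chr4:40239804-40239833 on the minus strand, with the core from base 3 to base 12 after the start. The Ifih1 sequence lies at chr2:62646206-62646233, also on the minus strand, with the core from base 33 to base 42. The Eif2ak2 sequence lies at chr17:78882535-78882564 on the minus strand, and its core also follows the start, from base 19 to base 28. Those of Ifit1 lie on the plus strand at chr19:34640775-34640804 and chr19:34640794-34640823, and their cores precede the start, from base -104 to -95 and from base -85 to -76. The window of Trim25, a gene that was lower too, held no match, and neither did those of Mavs, Cgas, Tbk1 and Ikbke. Among genes called lower by 1.5-fold or more, 10.7% of 802 windows held the core, and among the listed genes induced by IRF3 and interferon 47.6% of 21 did. The gamma-activated motif TTCNNNGAA, which reads the same on both strands, was in none of the 7 windows and in 8.30% of all windows. It was in 10.6% of the same 802 windows and in 14.3% of the same 21. Among windows of genes tested, the shares were 3.11% for the ISRE core and 6.93% for the gamma-activated motif. A match is a run of letters and says nothing about binding.

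Library totals were between 18526884 and 18844436 counts, so depth differed little between groups. Orai2 had 994, 914 and 909 counts with GFP against 67882, 53034 and 45140 with ORAI2, as labelled. The members had between 408 and 10165 counts in a library. Changes are relative to the bulk of genes, whose median log2 fold change the TMM scaling sets near 0 (-0.002), so a shift shared by most genes would not be seen. Within a group the libraries were not copies of each other (chi-square per gene 2.54 or more). Of 12 listed fibroblast markers, 10 were tested and all 10 were lower in ORAI2, beside 22.1% of all genes tested. The list was drawn up with earlier results of these data known. The summed level of the markers ranged from 8533 to 9047 CPM (counts scaled to library size) in GFP and from 6853 to 7403 CPM in ORAI2. Their median log2 fold change was -0.55, with -1.38 for the collagen gene Col1a1, -0.73 for the receptor gene Pdgfrb and -0.16 for the fibronectin gene Fn1, which had the most counts of the list. Thy1, a surface marker of many fibroblasts, had at most 3 counts in a library.

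Of the 10 sensor genes, 6 were lower in the ORAI2 libraries, 1 was higher and 3 did not pass an adjusted p of 0.05 in edgeR's quasi-likelihood test. Over all genes tested, 22.1% were called lower and 20.8% higher, 42.9% in all. The members were chosen with earlier results of these data known, so their count is no independent evidence of direction. The RNA helicases Rigi, Ifih1 and Dhx58, the ligase Trim25 and the sensor Zbp1 were lower by more than 1.4-fold. Sting1 was 9.24% lower and Tbk1 10.7% higher, while Mavs, Cgas and Ikbke did not pass. The median log2 fold change of the 10 was -0.34. The same 6 genes lay lower and the same gene higher without overlap between the groups, where 26.6% and 26.2% of all genes tested did.

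**Figure D1:**
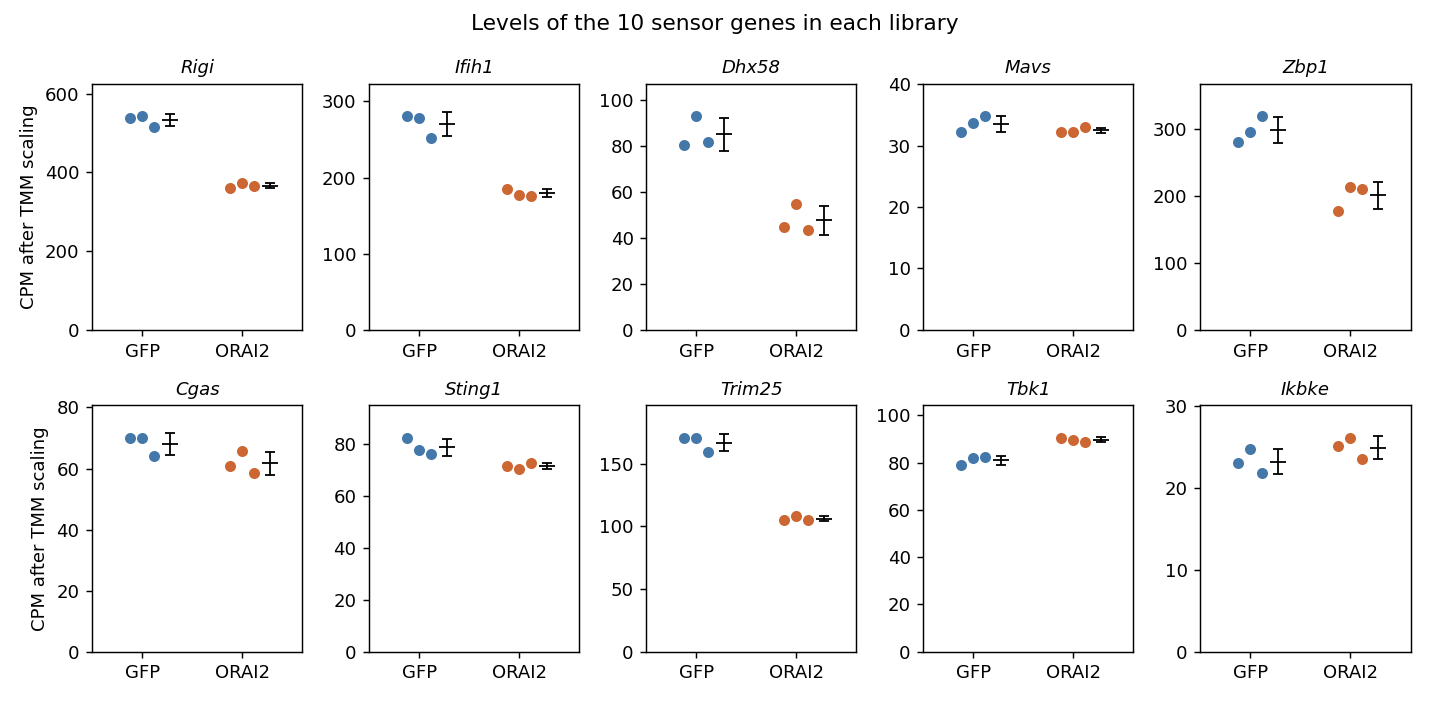
Level of each sensor gene in CPM after TMM scaling, on axes that start at 0, with 1 point per library and the mean ± SD of 3 libraries beside the points. The GFP and ORAI2 points are apart for Rigi, Ifih1, Dhx58, Zbp1, Trim25, Sting1 and Tbk1, and overlap for Mavs, Cgas and Ikbke.

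Rigi was the most abundant member by counts. It stood at 538, 544 and 516 CPM with GFP and at 360.4, 373 and 366 CPM with ORAI2. The lowest GFP library thus lay well above the highest ORAI2 library. The mean went from 532.6 ± 14.8 to 366.5 ± 6.29 CPM (SD, n = 3 each), a fall of 31.2% (log2 fold change -0.54, SE 0.04, edgeR adjusted p = 1.89e-07). Of all genes tested, 8.56% had a lower log2 fold change.

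Ifih1, the sensor of long RNA duplexes, had 281, 278 and 253 CPM in GFP and 185, 177 and 176 CPM in ORAI2. Again no ORAI2 library reached the GFP range, and the mean was 33.7% lower (log2 fold change -0.59, SE 0.04, edgeR adjusted p = 5.36e-07). GFP replicate 3 was the lowest of its group for Ifih1 and Rigi, as it was for Trim25, Cgas, Sting1 and Ikbke. It was the highest for Zbp1, Mavs and Tbk1.

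Dhx58 encodes LGP2, the helicase of this family that lacks the signalling domains of the other two and modulates them. It was at 80.5, 93.3 and 81.8 CPM in GFP and at 44.8, 54.8 and 43.5 CPM in ORAI2. Its fall of 44.0% had the lowest log2 fold change of the 10 genes (-0.84, SE 0.08, edgeR adjusted p = 4.47e-06). It was also the most variable member, with a coefficient of variation of 13.0% in the ORAI2 libraries, where replicate 2 stood above the others. A gene on the opposite strand, Dhx58os, overlaps it in the GENCODE annotation. The sources used here do not say if counting used strand, so reads of the pair may not be told apart.

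Trim25 attaches ubiquitin chains that activate RIG-I and is itself raised by interferon. Its levels were 170.3, 171 and 159 CPM in GFP and 105, 108 and 105 CPM in ORAI2, and the groups were far apart. The fall was 36.4% (log2 fold change -0.65, SE 0.04, edgeR adjusted p = 8.79e-08), and 6.21% of genes tested had a lower value. Rnf135, which encodes Riplet, another ubiquitin ligase of RIG-I, was 1.58-fold lower, at 14.3 ± 1.01 CPM in GFP and 9.07 ± 0.39 CPM in ORAI2 (SD, n = 3, edgeR adjusted p = 7.07e-05).

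Mavs, the adaptor shared by RIG-I and MDA5, differed from its receptors. It was at 32.3, 33.6 and 34.8 CPM in GFP and at 32.2, 32.2 and 33.0 CPM in ORAI2, and the ranges overlapped. Its log2 fold change was -0.05 with a 95% interval from -0.16 to 0.07 (edgeR adjusted p = 0.498). The interval does not reach the values of Rigi, Ifih1 and Dhx58, whose own intervals run from -0.62 to -0.46, from -0.69 to -0.50 and from -1.01 to -0.66.

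Zbp1 binds Z-form nucleic acids and can start cell death through the kinase RIPK3. It had 280.1, 296 and 320.01 CPM in GFP and 178, 214 and 211 CPM in ORAI2, where replicate 1 was the lowest. The mean was 32.7% lower (log2 fold change -0.57, SE 0.07, edgeR adjusted p = 1.79e-05). Of its 6 listed partners in cell death, 1 was lower and 1 higher, beside 22.1% and 20.8% of all genes tested. Mlkl, the effector of necroptosis, had a log2 fold change of -0.18 and Ripk3 one of 0.14. The Ripk3 libraries overlapped between the groups.

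On the DNA-sensing route the differences were small. Cgas was at 70.2, 70.2 and 64.0 CPM in GFP and at 60.7, 65.8 and 58.5 CPM in ORAI2, with overlapping ranges. Its log2 fold change of -0.14 (95% interval -0.26 to -0.02) just missed the threshold (edgeR adjusted p = 0.0505). It passed once GFP replicate 3 was left out (0.0152) or ORAI2 replicate 2 was (0.0193, both adjusted p), and DESeq2 gave an adjusted p of 0.112. A gene on the opposite strand, Gm8093, overlaps it.

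Sting1, the adaptor below cGAS, had 82.7, 77.8 and 76.5 CPM in GFP and 71.5, 70.7 and 72.9 CPM in ORAI2. All ORAI2 libraries lay below all GFP libraries, by a narrow margin, and the mean was 9.24% lower (log2 fold change -0.14, edgeR adjusted p = 0.0181). The call was lost with DESeq2 (0.0698) and on leaving out GFP replicate 1 (0.0861), ORAI2 replicate 1 (0.0563) or ORAI2 replicate 2 (0.0616, all adjusted p). Stim1, the calcium store sensor that is also known to hold STING at the endoplasmic reticulum, did not pass (log2 fold change -0.01, adjusted p = 0.891, named after its value was seen).

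The kinases did not follow the helicases. Tbk1 was at 78.8, 81.8 and 82.3 CPM in GFP and at 90.6, 89.8 and 88.5 CPM in ORAI2, so every ORAI2 library was above every GFP library. It rose by 10.7% (log2 fold change 0.15, SE 0.04, edgeR adjusted p = 0.00729). Ikbke, which encodes the related kinase IKK-epsilon, had 23.0, 24.8 and 21.8 CPM in GFP and 25.2, 26.2 and 23.5 CPM in ORAI2. Those ranges overlapped, and its log2 fold change of 0.10 (95% interval -0.05 to 0.26) did not pass (adjusted p = 0.262). The opposite-strand genes Gm28913 and Gm28914 overlap Ikbke, and Gm28913 stood at 2.18 ± 0.63 CPM in GFP and 2.03 ± 0.19 CPM in ORAI2.

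**Figure D2:**
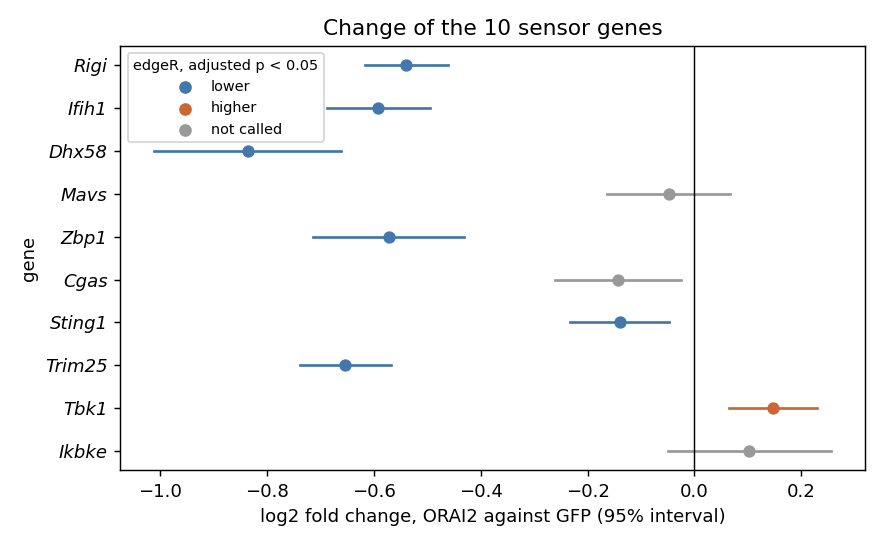
Log2 fold change of each sensor gene, ORAI2 against GFP, as a point with its 95% interval, coloured by the edgeR call at an adjusted p of 0.05. Rigi, Ifih1, Dhx58, Zbp1 and Trim25 lie between -0.84 and -0.54, and the other 5 genes between -0.14 and 0.15.

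Ratios of counts within a library need no scaling between libraries. Rigi had 16.7, 16.2 and 14.8 counts per Mavs count with GFP against 11.2, 11.6 and 11.1 with ORAI2. Ifih1 had 8.72, 8.27 and 7.25 counts per Mavs count in GFP and 5.75, 5.50 and 5.34 in ORAI2. Receptor counts were therefore lower against their adaptor in every ORAI2 library. The exact two-sided permutation p was 0.10 for each, the smallest that 3 against 3 libraries allow (0.20 after Benjamini-Hochberg adjustment over 6 ratios). Dhx58 was also lower against Rigi in every ORAI2 library, at 0.160 ± 0.011 in GFP and 0.130 ± 0.015 in ORAI2 (exact permutation p = 0.10, adjusted 0.20), while its ratio to Ifih1 overlapped (exact permutation p = 0.20, adjusted 0.30).

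On the DNA route the ratio of Cgas to Sting1 was 0.862 ± 0.035 in GFP and 0.861 ± 0.065 in ORAI2 (SD, n = 3, exact permutation p = 1). That of Tbk1 to Ikbke was 3.50 ± 0.24 and 3.60 ± 0.17 (exact permutation p = 0.50, adjusted 0.60).

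**Figure D3:**
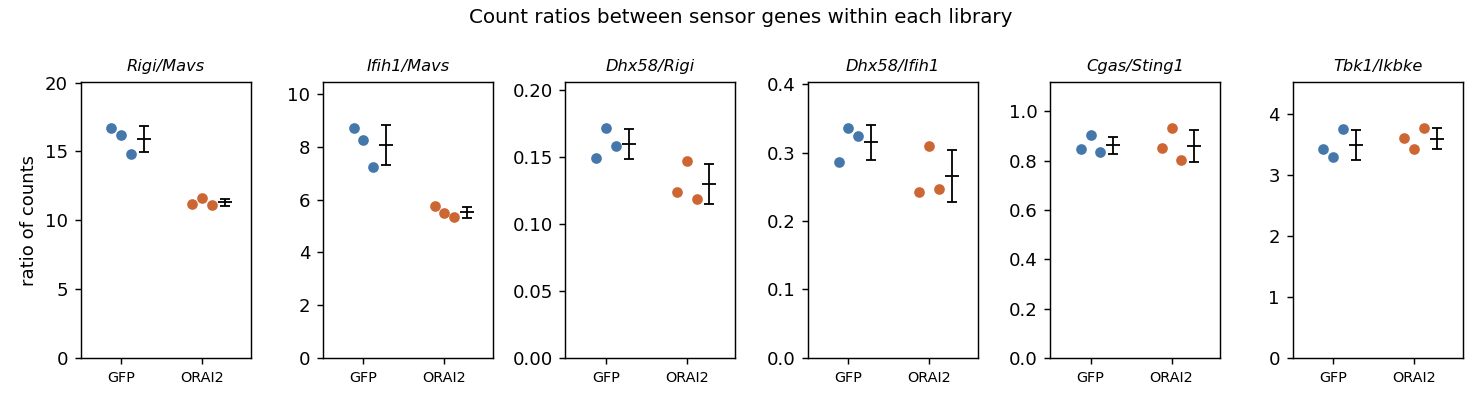
Ratio of the counts of 2 sensor genes within each library, on axes that start at 0, with 1 point per library and the mean ± SD of 3 libraries. Rigi/Mavs, Ifih1/Mavs and Dhx58/Rigi are lower in all ORAI2 libraries, and the other 3 ratios overlap between the groups.

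Levels of different genes were compared per kilobase of the longest coding transcript in the GENCODE annotation. In the GFP libraries Zbp1 stood first at 150.2 ± 10.1 CPM per kb, followed by Rigi at 138 ± 3.81 and Ifih1 at 49.5 ± 2.86 (SD, n = 3). Then came Dhx58 at 35.3 and Sting1 at 34.4, whose libraries overlapped, Trim25 at 29.8, Tbk1 at 26.8, Cgas at 16.8, Mavs at 10.98 and Ikbke at 7.14 CPM per kb. The adaptor of the RNA route was thus measured at a lower level per length than each of its receptors.

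In the ORAI2 libraries the order of the first 3 was the same, though the libraries of Zbp1 at 101 and Rigi at 94.6 CPM per kb overlapped. Sting1 at 31.2 and Tbk1 at 29.7 CPM per kb stood above Dhx58 at 19.8 and Trim25 at 19.0. With the median transcript length instead, Sting1 and Tbk1 stood above Dhx58 in both groups, and above Ifih1 in ORAI2, so this part of the order depends on the transcript chosen.

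The genes that act around the sensors were read from lists, all drawn up with earlier results of these data known. Each list count that follows is to be read beside the shares over all genes tested, 22.1% called lower and 20.8% called higher. Of 26 other nucleic acid sensors tested, 9 were lower, 11 higher and 6 not past the threshold, with a median log2 fold change of -0.005. Tlr3, the endosomal receptor for RNA duplexes, was 2.26-fold lower, from 94.1 ± 7.98 to 41.6 ± 4.01 CPM (edgeR adjusted p = 1.01e-07). Ifi203 and Ifi204, of the interferon-inducible family of DNA-binding proteins, were 2.01-fold and 1.68-fold lower. Eif2ak2, which encodes the RNA-activated kinase PKR, was 1.41-fold lower, at 542 ± 22.7 CPM in GFP and 384 ± 5.86 CPM in ORAI2 (adjusted p = 7.08e-07).

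Named after their values were seen, the other members of that list that were lower were Mndal, Ddx60, Zc3hav1, Xrcc6 and Prkra. Those that were higher included the general RNA helicases Ddx21, Dhx9, Dhx15, Dhx33, Dhx36, Ddx3x and Ddx41, with log2 fold changes from 0.17 for Dhx15 to 0.43 for Dhx33. Aim2, a DNA sensor of the inflammasome, was higher as well, with a log2 fold change of 0.21.

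Of 25 tested regulators of the RIG-I-like receptors and MAVS, 6 were lower, 3 higher and 16 not past the threshold (median log2 fold change -0.03). The shares over all genes tested were 22.1% lower and 20.8% higher. Beside Rnf135, Trim14, a MAVS-associated protein, was 2.07-fold lower, Sec14l1 1.32-fold and Nlrc5 1.36-fold. The 3 that were higher were the ubiquitin ligases Smurf1 and Smurf2 and the RNA-binding protein gene Pcbp1, named after their values were seen, with log2 fold changes from 0.15 for Smurf2 to 0.26 for Smurf1.

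Of 20 genes for TBK1 scaffolds, TRAF adaptors and IRF factors, 8 were lower, 5 higher and 7 not past the threshold (median log2 fold change -0.07). Irf7, a factor phosphorylated by TBK1 and itself raised by interferon, was 1.61-fold lower, at 184 ± 9.68 CPM in GFP and 114 ± 12.7 CPM in ORAI2 (edgeR adjusted p = 4.65e-06). Irf3, its constitutive relative (named after its value was seen), stood at 18.1 ± 1.02 and 17.1 ± 0.37 CPM, with a log2 fold change of -0.08 (95% interval -0.24 to 0.08, adjusted p = 0.400). Azi2, a TBK1 scaffold also called NAP1, was 1.31-fold lower, and Otud5, a deubiquitinase of TRAF3, 1.46-fold lower. Chuk, which encodes IKK-alpha, was 1.33-fold higher (adjusted p = 2.12e-06).

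Of 23 regulators of cGAS and STING and nucleases tested, 11 were lower, 4 higher and 8 not past the threshold (median log2 fold change -0.14). The largest change among the named genes was that of Trex1, the exonuclease that degrades cytosolic DNA, which was 2.58-fold lower, from 23.0 ± 3.64 to 8.92 ± 1.48 CPM (edgeR adjusted p = 4.07e-06). Samhd1, which depletes nucleotides, was 1.67-fold lower from 383 ± 6.04 CPM. Usp18, an inhibitor of interferon receptor signalling, was 1.74-fold lower from 499.9 CPM, and Adar, which edits RNA duplexes, 1.25-fold lower from 452 ± 8.63 CPM.

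Downstream, Ifnb1 (interferon beta) had 46, 41 and 57 counts with GFP against 5, 7 and 8 with ORAI2. The groups were far apart, with a 7.06-fold lower mean of 0.36 ± 0.08 CPM against 2.57 ± 0.44 CPM (SD, n = 3, edgeR adjusted p = 6.44e-06). Of 11 listed interferons only 4 had values here, and Ifnb1 alone passed the filter. Ifna4 had 6, 5 and 14 counts in GFP and 2, 0 and 2 in ORAI2. Of 25 listed genes induced by IRF3 and interferon, 24 were lower and 1, the chemokine gene Ccl5, was higher (log2 fold change 0.10), with a median of -0.73. The list was drawn up with earlier results of these libraries known, and its count is no independent evidence of direction. Cmpk2, Ifit3 and Ifit1 had log2 fold changes of -1.34, -1.31 and -0.89, all lower than those of the 10 sensor genes, with edgeR adjusted p-values of at most 4.01e-08.

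**Figure D4:**
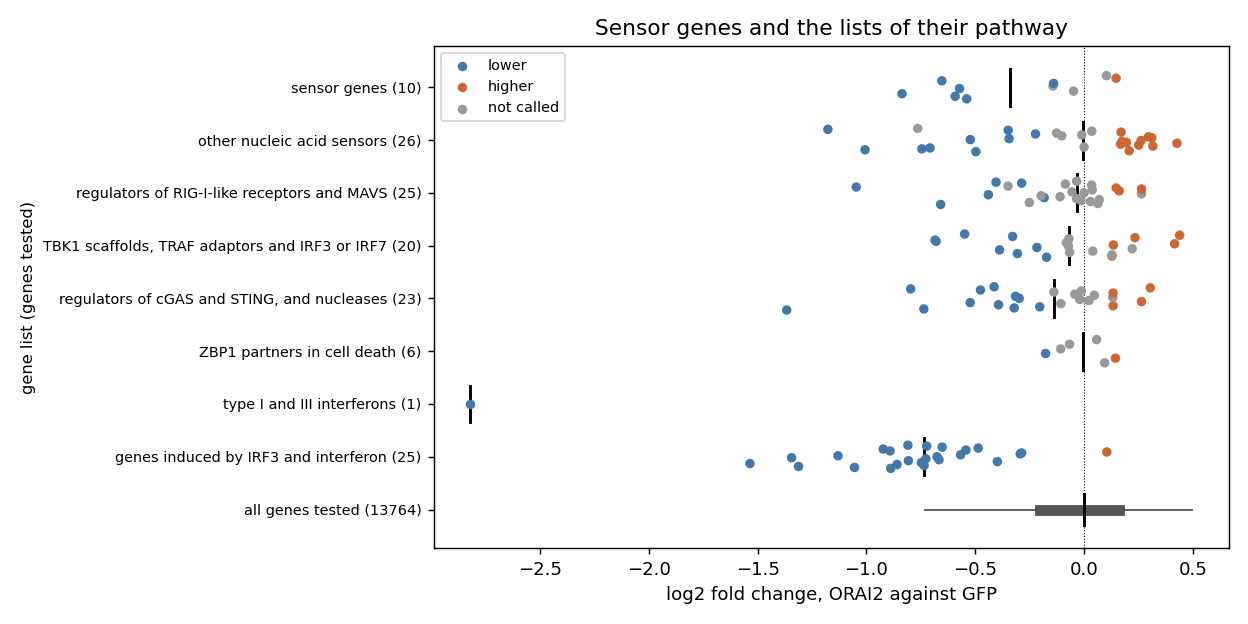
Log2 fold change, ORAI2 against GFP, of the 10 sensor genes and of each tested gene in the lists of their pathway, with a black bar at each median; the bottom line shows all 13764 genes tested (thick, middle 50%; thin, middle 90%). The median is -0.34 for the sensor genes and -0.73 for genes induced by IRF3 and interferon, and Ifnb1 lies alone at -2.82.

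The genes whose profile over the 6 libraries was nearest to that of Rigi, by the root mean square difference of centred log2 CPM, were Tsc22d1 (0.019), Prps2 (0.019), Ltbp1 (0.022), Otud5 (0.024) and Ccdc6 (0.026). Their log2 fold changes ran from -0.57 for Ltbp1 to -0.52 for Ccdc6. Among the members Ifih1 was nearest, at 0.052 and rank 69 of the genes tested, followed by Trim25 at 0.058 and rank 102. With 6 libraries in 2 groups, this likeness rests mainly on the size of the group difference.

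Markers of other cell types were read as well, and those named were chosen after their values were seen. Macrophages and dendritic cells also express the sensors. Of their 12 markers found here, 4 were tested: Mpeg1 and Cd14 were lower (log2 fold changes -1.72 and -0.64), Flt3 was higher, with 9 to 32 counts in a library and overlapping groups, and Cd68 did not pass. Their summed level ranged from 52.7 to 57.1 CPM in GFP and from 28.8 to 36.9 CPM in ORAI2. The pan-leukocyte gene Ptprc had at most 2 counts in a library, Csf1r at most 4, and Itgam and Itgax at most 2. Lymphocyte markers summed to at most 0.16 CPM, with Nkg7 and Cd8a at 0 in every library. Endothelial markers summed to between 6.48 and 8.83 CPM in GFP and 16.3 and 17.6 CPM in ORAI2. Both that were tested were higher, Kdr 2.005-fold (edgeR adjusted p = 5.97e-05) and Vwf 2.76-fold (1.84e-05), while Emcn was at 0. The others had too few counts to be tested and did not share a direction. Pecam1 had 6, 3 and 7 counts in GFP and 4, 1 and 4 in ORAI2, and Tek 5, 2 and 1 against 1, 1 and 0. Cdh5 had 0, 1 and 1 against 1, 3 and 3. Epithelial markers summed to between 2.73 and 3.75 CPM in GFP and 4.22 and 5.12 CPM in ORAI2. Of the 2 tested, Grhl2 was 4.68-fold higher (edgeR adjusted p = 0.000131) and Krt18 did not pass, and Epcam was at 0. The part of all these markers, fibroblast ones included, in the sensor results was not tested. In bulk RNA, fewer cells that express a sensor and less of its RNA per cell cannot be told apart.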

How the data were processed

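RNA taken up in TRIzol was enriched on oligo(dT) beads, fragmented and copied from random hexamers, per the labels' protocols. HISAT2 2.0.4, Salmon 1.4.0 and build GRCm39 are listed in the submitters' processing notes, and the sources used here do not give their roles, the annotation or any use of strand. Whole-number counts and TPM values per gene were deposited by the authors, per the file headers. Whether the counts were rounded is not stated. The deposited TPM values disagreed with the counts (36.33 TPM for Orai2 in the column ORAI2-3) and entered 2 alternatives only. Symbols came from RefSeq GRCm38.p6 (96.6% of 26532 genes matched), and lengths and overlaps from the GENCODE annotation of GRCm38.

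The counts were tested with edgeR 4.0.16 in R 4.3.3 (quasi-likelihood test, TMM, filterByExpr with a minimum count of 10, ORAI2 against GFP as the only term), adjusted by Benjamini-Hochberg over 13764 genes and called under 0.05. Standard errors and 95% intervals derive from the F statistic. Levels are CPM after TMM scaling. The steps were tested on simulated data, where 75% of 1.5-fold and 91% of 2-fold changes were called, and 11 unchanged genes. Smaller changes, such as those of Sting1 and Tbk1, were not simulated. Alternatives were other scalings and filters, DESeq2 1.42.0, limma-voom (limma 3.58.1), the replicate number as a block, limma on log2(TPM + 1), and each library left out.

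The 10 members and the 12 lists were chosen with earlier results of these data known. Named genes were the members, Orai2, up to 4 called genes with the smallest p and no overlap between groups per pathway list, and the 5 genes nearest to Rigi; others named were chosen after their values were seen. Of 198 list entries, 185 were found in the table; the rest are not analysed here. A gene that this rule names is not reported here.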

Additional observations from a re-analysis of the deposited data

Results flagged for a closer look

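The deposited TPM columns, which enter no comparison above, held values in columns named ORAI2 above the highest column named GFP for Orai2 and 3 sensor genes. For Orai2 the highest was 1429.5 TPM, against at most 38.19 TPM in the GFP columns, but the column named ORAI2-3 held only 36.33 TPM. For Tbk1 it was 67.53 against 60.75 TPM, for Ikbke 37.89 against 26.32 TPM and for Mavs 25.23 against 24.45 TPM, each in the column named ORAI2-3. The 2 columns numbered 3 also stood apart from the others for the sensors that were lower by counts: Zbp1 was at 154.95 TPM in GFP-3 and 170.33 TPM in ORAI2-3, and at 340.7 TPM or more in the other 4, while Ifih1 was at 29.17 and 40.98 TPM against 61.36 TPM or more. Sting1 went the other way, at 148.92 and 138.68 TPM against at most 81.67 TPM. For Dhx58 the margin was narrow, with 35.97 TPM in ORAI2-3 against 37.11 TPM in ORAI2-2. Cgas, which was not called by counts, was also low in both columns, at 16.26 and 17.91 TPM against 27.94 TPM or more. Across 8903 genes, the values of ORAI2-3 correlated with the counts of the same name at r = 0.12, after centring each gene over the 6 columns. The TPM columns numbered 1 and 2 correlated best with the counts numbered 2 and 3 of their group: GFP-1 with the second GFP count column (0.59), GFP-2 with the third (0.58), ORAI2-1 with the second ORAI2 count column (0.79) and ORAI2-2 with the third (0.73). With the counts of their own number they gave 0.38, 0.41, 0.57 and 0.67.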

How the results depend on the processing

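In the 14 alternatives on counts, from 5 to 7 sensor genes were called lower and 1 was called higher. The number called over all genes moved too. It ran from 2335 (DESeq2) to 3344 (upper quartile) lower and from 2288 (DESeq2) to 3048 (replicate block) higher. Rigi, Ifih1, Dhx58, Zbp1, Trim25 and Tbk1 kept their calls in all 14, and Mavs and Ikbke passed in none; no log2 fold change of a member changed sign. Sting1 lost its call in 4 of them and Cgas passed in 5: with upper-quartile scaling (adjusted p = 0.0269), with the filter at 5 CPM (0.0382), with the replicate block (0.0177) and without GFP replicate 3 or ORAI2 replicate 2. Called genes of the pathway lists numbered 60 lower and 25 higher, and from 56 to 62 and from 21 to 27 in these alternatives.

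With all 6 TPM columns in limma, 0 sensor genes were lower and 0 higher, and 0 list genes were lower and 0 higher. Of all 12947 genes tested in that setting, only 11 were lower and 11 higher. The log2 fold change of Orai2 itself was 3.77 (limma adjusted p = 0.513), and Rigi, for one, had -0.41 (limma adjusted p = 0.769). With the TPM columns numbered 1 and 2, an alternative chosen after seeing the data, 5 sensor genes were lower and 0 higher, and 46 list genes lower and 8 higher. Of all 13082 genes tested there, 1457 were lower and 927 higher.

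Same-numbered libraries deviated from their group means with correlations of 0.136, 0.073 and 0.126 across genes, each library correlating best with its own number, but the labels do not say that a number marks a shared culture. With the replicate block 7 sensor genes were lower and 1 higher, and 3198 genes lower and 3048 higher over all genes, against 3040 and 2869 without it. DESeq2 called 2335 lower and 2288 higher. Depth did not differ much between libraries; the small changes of Cgas and Sting1 passed or missed the threshold with the library left out.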
